A study of Mus musculus with 12 samples.

Results

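The guanylate-binding proteins (GBPs) are a family of large interferon-induced GTPases. Of the 23282 gene rows in a count table of mouse splenic B cells, the 10 whose symbols are Gbp2, Gbp3, Gbp4, Gbp5, Gbp6, Gbp7, Gbp8, Gbp9, Gbp10 and Gbp11 were taken by symbol; the family was picked with earlier results of these data known. A filter on low counts left 11857 rows for testing, among them 9 of the 10 members; Gbp11 had too few reads. The study had 4 groups of 3 libraries, which differed in what had been injected into the peritoneum of wild-type C57BL/6 mice aged 7 weeks. Control mice had no treatment. ODN mice received 50 µg of CpG-ODN 1826, a class B oligodeoxynucleotide that activates the endosomal receptor TLR9, on days 1 and 3. IM156 mice received IM156, a biguanide that inhibits oxidative phosphorylation, on days 0 and 2 at a dose of 30 mg/kg. ODN+IM156 mice received both agents on the same days, and all spleens were taken on day 4. The labels name no vehicle for the controls, no sex, no batch and no number of animals per library, and the series text calls the mice lupus-prone where the labels give a wild-type genotype. So p-values here rest on library-to-library spread, which may be technical.

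GBPs belong to the dynamin superfamily. Interferon-gamma, and to a lesser degree type I interferon, activates JAK-STAT signalling and induces IRF1, which drives GBP transcription. The proteins bind and hydrolyse GTP, assemble into coats on pathogen-containing vacuoles and on bacteria in the cytosol, and there expose the pathogen to inflammasomes and to the related immunity-related GTPases. Some members, among them Gbp2 and Gbp5, carry a lipid anchor at the C-terminus. In B cells, TLR9 ligands act on the cell directly, while interferon made by other spleen cells reaches it from outside.

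In the GRCm38 annotation of GENCODE M21, all 10 members were found, in 2 clusters. On chromosome 3, 4 members lie within 144.0 kb on the plus strand, in the order Gbp5 (142493978 to 142522344), Gbp7 (142530342 to 142550149), Gbp3 (142560026 to 142573209) and Gbp2 (142620602 to 142638008). On chromosome 5, 6 members lie within 332.3 kb on the minus strand. They are Gbp8 (105014150 to 105139540), Gbp9 (105077630 to 105139539), Gbp4 (105115767 to 105139586), Gbp10 (105215699 to 105239533), Gbp6 (105270702 to 105293698) and Gbp11 (105323042 to 105346472). The annotated extents of Gbp8, Gbp9 and Gbp4 overlap one another on the same strand, and Gbp11 is annotated as a polymorphic pseudogene. On the opposite strand no protein-coding gene overlaps a member.

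Promoters are shown for the members that the RefSeq promoter table (GRCm38.p6) held. These were 4 of the 10, Gbp5, Gbp7, Gbp3 and Gbp2, which form the chromosome 3 cluster. Promoters of the chromosome 5 cluster were not examined. Each window of 300 bases was searched on both strands for an ISRE-like motif (GAAA-NN-GAAA with N any base, the element bound by IRF factors), a GAS-like motif (TTCNNNGAA, the element bound by STAT factors) and an NF-kB-like motif (GGGA-NN-TTCC). Over all 32851 promoters of that length in the table, 3.44% held the ISRE-like motif, 8.3% the GAS-like motif and 1.47% the NF-kB-like motif. Capitals mark matches on either strand, and sequences read 5′ to 3′ on the plus strand.
Gbp5, chr3:142496764-142496900: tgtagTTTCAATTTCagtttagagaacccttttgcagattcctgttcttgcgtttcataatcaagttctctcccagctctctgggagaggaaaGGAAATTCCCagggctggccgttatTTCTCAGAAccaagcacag
Gbp7, chr3:142530166-142530302: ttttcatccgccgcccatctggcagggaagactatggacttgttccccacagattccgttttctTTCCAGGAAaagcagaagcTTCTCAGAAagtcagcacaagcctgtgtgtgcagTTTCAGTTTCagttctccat
Gbp3, chr3:142559874-142560024: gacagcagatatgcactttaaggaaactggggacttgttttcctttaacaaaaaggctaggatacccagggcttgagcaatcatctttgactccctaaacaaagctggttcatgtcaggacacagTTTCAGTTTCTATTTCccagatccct
Gbp2, chr3:142620493-142620623: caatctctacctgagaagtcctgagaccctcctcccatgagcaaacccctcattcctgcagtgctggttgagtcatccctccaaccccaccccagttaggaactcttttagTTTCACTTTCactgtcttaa

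All 4 genes held an ISRE-like match upstream of a RefSeq start, read on the minus strand. Its first base lay at -53 from the start in Gbp7, -59 in Gbp2, -45 and -39 (overlapping matches) in Gbp3, and -165 in Gbp5. GAS-like matches stood in Gbp5 at -52 and -245, the latter outside the stretch printed, and in Gbp7 at -106 and -87. An NF-kB-like match stood in Gbp5 at -77 and another in Gbp2 from 8 to 17 bases after the start. Gbp3 has a second window in the table, which held no match. The RefSeq starts are not always the first bases of the GENCODE extents. The stretch printed for Gbp5 lies inside the extent of that gene, which begins at 142493978. That of Gbp2 ends inside its extent, which begins at 142620602. A match is a run of letters and does not show that a factor binds there.

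Reads in these libraries come from the 3′ ends of transcripts, which decides how far similar members can be told apart. Each member's last 500 transcript bases were cut into 50-base words and looked up in all other genes' transcripts. For Gbp10, 100% of the words occurred in another gene (88.9% in Gbp6), and for Gbp6 77.8% occurred in Gbp10. For Gbp4 the share was 6.43%, for Gbp5 5.99%, and for Gbp2, Gbp3, Gbp7, Gbp8, Gbp9 and Gbp11 no word was shared. Reads of Gbp6 and Gbp10 can therefore not be placed with certainty, and their values below are uncertain as values of separate genes.

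Libraries held between 9650775 and 11532525 counts, and the tested members had from 17 to 1837 counts in a library. Levels are given in CPM, the counts of a gene relative to the scaled library size. The 10 members' summed counts were 0.0274 to 0.0605% of a library. A pair of ODN libraries stood apart from the rest. ODN replicate 2 had 1.46% of its counts on the ribosomal RNA row Rn45s, where the other 11 libraries had 4.78 to 9.63%. ODN replicate 3 had a single read (1 count) on Xist, which silences an X chromosome in female cells, where the others had 923 to 1320 CPM. Results on the ODN group are given with and without replicate 3, and without replicates 1 or 2 where the count of called members changes.

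Summed over the family, the level was 300, 325 and 310 CPM in the control libraries and 324, 280 and 264 CPM with IM156. It was 433, 386 and 544 CPM with ODN, and 606, 504 and 549 CPM with both agents. Every library with ODN was above every library without it. The bulk libraries cannot tell more RNA per cell from more cells of a type that expresses these genes.

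**Figure D1:**
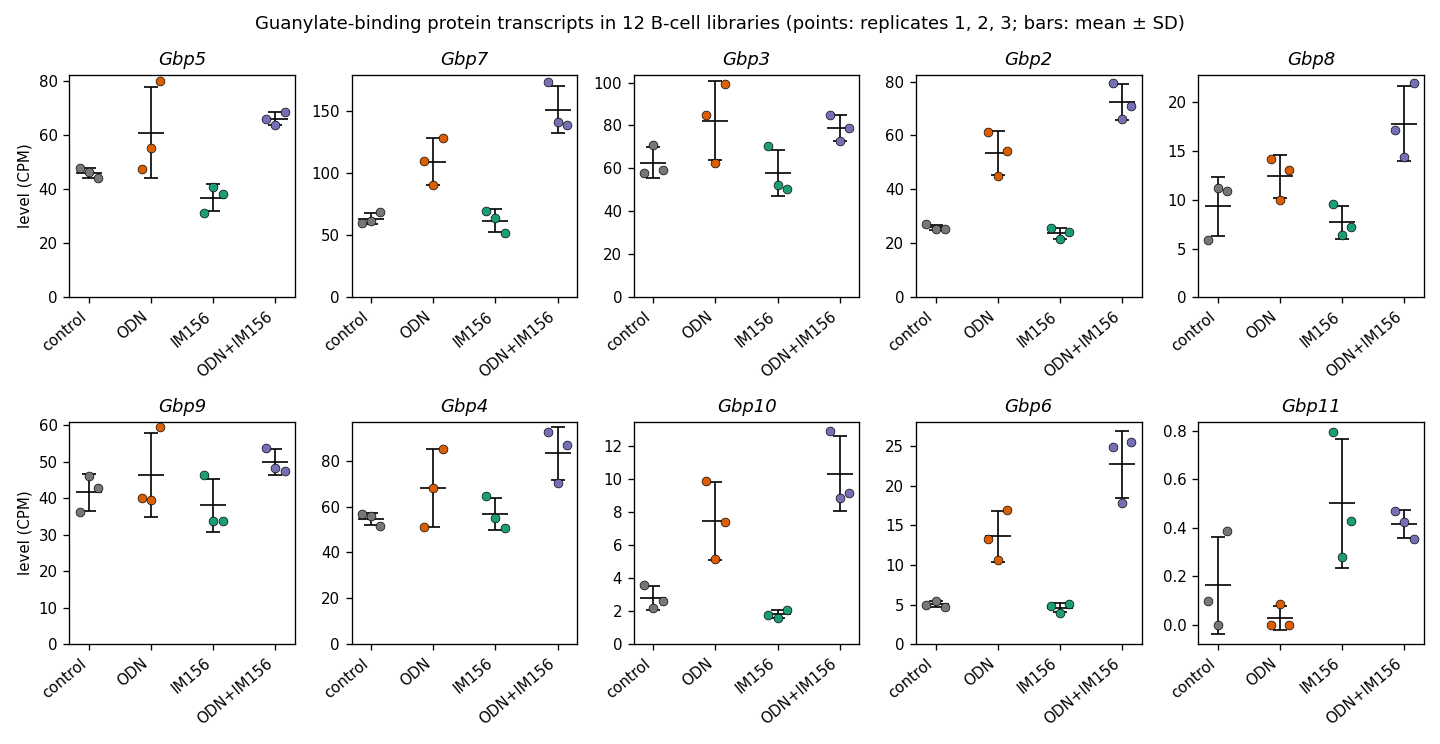
Level of each member in CPM (vertical axis, 1 panel per gene, each with its own scale) in the control, ODN, IM156 and ODN+IM156 groups. Points are replicates 1, 2 and 3 from left to right and bars are the mean ± SD of 3 libraries. Gbp2, Gbp6 and Gbp7 stand in separate ranges in control, ODN and ODN+IM156, while groups next to each other in level overlap in Gbp9 and Gbp4 and Gbp11 stays below 1 CPM.

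The first question was which members respond to the TLR9 ligand alone. Against control, Gbp2, Gbp6, Gbp7 and Gbp10 rose with ODN and no member fell. That is 4 of 9 tested members, where 7.34% of the 11857 tested genes rose, by edgeR's quasi-likelihood test with Benjamini-Hochberg adjustment over all tested genes (called at an adjusted p below 0.05). Gbp2, a lipid-anchored member that coats pathogen vacuoles, had levels of 27.1, 25.4 and 25.2 CPM in control and 61.3, 44.9 and 54.1 CPM with ODN. All 3 ODN libraries were above all 3 control libraries, and the log2 fold change was 1.04 (SE 0.124, adjusted p = 4.2e-05). Gbp7, which has been linked to NADPH oxidase assembly on phagosomes, had 60, 61.8 and 68.3 CPM in control and 110, 90 and 128 CPM with ODN. These ranges were also separate, with a log2 fold change of 0.79 (SE 0.13, adjusted p = 0.000703).

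Gbp6 and Gbp10, the near-identical neighbours on chromosome 5, started from lower levels. Gbp6 had 4.97, 5.44 and 4.74 CPM in control and 13.3, 10.6 and 17 CPM with ODN, a log2 fold change of 1.43 (SE 0.216, adjusted p = 0.000333). Gbp10 had 3.58, 2.18 and 2.61 CPM in control and 9.89, 5.15 and 7.36 CPM with ODN, a log2 fold change of 1.42 (SE 0.299, adjusted p = 0.00401). In both, every ODN library was above every control library. The groups were separate and higher with ODN for these 4 members only, where 13.2% of all tested genes had such separate groups.

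The other 5 members were not called. Their log2 fold changes were 0.40 for Gbp5 (adjusted p = 0.0896), 0.40 for Gbp8 (adjusted p = 0.326), 0.39 for Gbp3 (adjusted p = 0.104), 0.32 for Gbp4 (adjusted p = 0.181) and 0.15 for Gbp9 (adjusted p = 0.585). Gbp5, a promoter of NLRP3 inflammasome assembly, had 47.8, 46.3 and 44 CPM in control and 47.6, 55.1 and 79.9 CPM with ODN. Gbp4, which has been reported to restrain IRF7, had 56.6, 55.7 and 51.4 CPM in control and 51.2, 68.1 and 85.2 CPM with ODN. In both genes ODN replicate 1 lay within or below the control range and replicate 3 well above it. All 9 log2 fold changes were positive, as were 49.2% of those of all tested genes, and their median was 0.403 against -0.00496 for all tested genes.

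Replicate 3 of ODN had the highest family level of its group. Relative to the control mean, the median log2 shift of the 9 tested members was 0.647, 0.321 and 0.794 in ODN replicates 1, 2 and 3, and 7, 8 and 9 members lay above that mean. Without replicate 3 the same comparison called 4 members, without replicate 2 it called 5, and without replicate 1 it called 6. Over all genes, 1142, 714 and 595 were called higher in these 3 settings, against 870 in the full data. Gbp4 (0.49, adjusted p = 0.0253) and Gbp5 (0.55, adjusted p = 0.0163) were called without replicate 1, and Gbp3 (0.56, adjusted p = 0.0148) without replicate 2. Gbp9 turned to a log2 fold change of -0.08 without replicate 3. In the authors' deposited table, 4 members had a p-value under 0.05 for ODN against control: Gbp2, Gbp6, Gbp7 and Gbp10. Those p-values come from the same libraries by a test not given, so they are no independent support. The share of all rows under 0.05 in that column was not counted.

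The same question was asked in mice that received the inhibitor, with libraries that are not those compared above, although the fit takes 1 spread per gene from all 12. Against IM156 alone, ODN+IM156 raised 6 of 9 members, where 1.74% of all tested genes rose, and lowered none. Gbp2 had 25.6, 21.5 and 24.1 CPM with IM156 and 79.6, 66.3 and 71.1 CPM with both agents, a log2 fold change of 1.61 (SE 0.125, adjusted p = 3.19e-07). Gbp7 had 69.7, 63.9 and 51.7 CPM against 173, 141 and 139 CPM, a log2 fold change of 1.29 (SE 0.131, adjusted p = 6.21e-06). Every library with both agents was above every IM156 library in each of the 9 tested members, where 12.8% of all tested genes had such groups.

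Gbp6 had 4.78, 3.92 and 5.03 CPM with IM156 and 24.9, 17.8 and 25.5 CPM with both agents. Its log2 fold change was 2.31 (SE 0.216, adjusted p = 2.79e-06). Gbp10 had 1.79, 1.59 and 2.05 CPM against 12.9, 8.87 and 9.12 CPM, a log2 fold change of 2.50 (SE 0.31, adjusted p = 6.57e-05). These 2 genes had the largest fold changes of the family, at 4.96-fold for Gbp6 and 5.66-fold for Gbp10.

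Gbp5 and Gbp8 were called here and not with ODN alone. Gbp5 had 31.2, 40.9 and 38.3 CPM with IM156 and 65.9, 63.8 and 68.7 CPM with both agents, a log2 fold change of 0.845 (SE 0.149, adjusted p = 0.00276). Gbp8 had 9.57, 6.35 and 7.16 CPM against 17.1, 14.4 and 22 CPM, a log2 fold change of 1.215 (SE 0.244, adjusted p = 0.00913). The Gbp8 call was lost without IM156 replicate 2 (adjusted p = 0.0781), without IM156 replicate 3 (adjusted p = 0.0664) and without ODN+IM156 replicate 3 (adjusted p = 0.0809). Whether the response of either gene differed between the 2 backgrounds is the interaction test below.

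Gbp4, Gbp3 and Gbp9 were not called, with log2 fold changes of 0.56 (adjusted p = 0.0515), 0.45 (adjusted p = 0.127) and 0.39 (adjusted p = 0.236). Gbp4 had 64.4, 55.1 and 50.5 CPM with IM156 and 92.6, 70.2 and 86.7 CPM with both agents. Gbp3 had 70.3, 52.5 and 50.6 CPM against 85, 73 and 79 CPM, and Gbp9 had 46.4, 33.9 and 33.8 CPM against 53.9, 48.2 and 47.6 CPM. In Gbp3 and Gbp9 IM156 replicate 1 was the highest of its group and lay just below the lowest ODN+IM156 library. The median log2 fold change of the 9 members was 1.215, against -0.00326 for all tested genes.

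**Figure D2:**
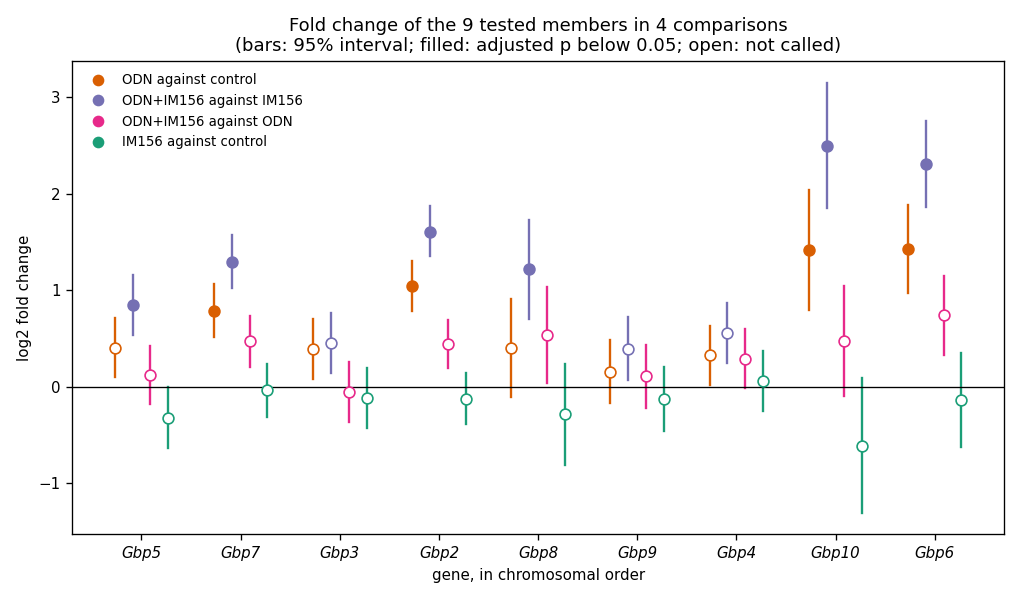
Log2 fold change (vertical axis) of each tested member, in chromosomal order, in 4 comparisons, with 95% intervals; filled points have an adjusted p below 0.05. Values for ODN+IM156 against IM156 reach 2.50 in Gbp10, those for ODN against control reach 1.43 in Gbp6, and the 2 comparisons that add IM156 have no filled point.

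Averaged over both backgrounds, 6 libraries with ODN were set against 6 without it, and 8 of 9 members rose, where 8.09% of all tested genes did. The log2 fold changes were 1.96 for Gbp10, 1.87 for Gbp6, 1.33 for Gbp2 and 1.04 for Gbp7, and these 4 had no overlap between the 6 and the 6 libraries, which 3.49% of all tested genes reached. Gbp8 rose by 0.81 (adjusted p = 0.00352), Gbp5 by 0.62 (adjusted p = 0.000434), Gbp4 by 0.44 (adjusted p = 0.00817) and Gbp3 by 0.42 (adjusted p = 0.0116). Gbp9, found on parasite vacuoles, was not called (0.27, SE 0.111, adjusted p = 0.12). Its 95% interval was 0.0411 to 0.505, so that a change as large as that of Gbp7 lies outside it. Without ODN replicate 3 the same comparison again called 8 members, while the genes called higher in all went from 959 to 1174.

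Members next to each other in a cluster, counting the 9 tested members only, did not all respond alike. Other genes that may lie between them were not considered. The log2 ratio of the counts of each such pair was computed in every library. It was compared between the 6 libraries with and the 6 without ODN. The test was a two-sided exact permutation test within the IM156 arms (400 rearrangements, smallest possible p = 0.005), adjusted over 7 pairs; it was added after the levels had been seen. On chromosome 3, Gbp2 gained on Gbp3 by 0.901 (adjusted p = 0.0117). The ratio ran from -0.877 to -0.0958 in libraries with ODN and from -1.48 to -1.07 in those without, with no overlap. Gbp3 lost against Gbp7 by -0.617 (adjusted p = 0.0117), and Gbp7 gained on Gbp5 by 0.424 (adjusted p = 0.035).

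On chromosome 5, Gbp10 gained on Gbp4 by 1.5 (adjusted p = 0.0117). The ratio ran from -3.72 to -2.37 with ODN and from -5.13 to -3.97 without. Gbp9 lost against Gbp8 by -0.556 (adjusted p = 0.035). For Gbp4 against Gbp9 (0.152, adjusted p = 0.187) and Gbp6 against Gbp10 (-0.0805, adjusted p = 0.655) no change passed the test, and the latter pair shares most of its 3′ sequence. Without ODN replicate 3 the changes were 0.968 for Gbp2 to Gbp3, -0.631 for Gbp3 to Gbp7 and 1.58 for Gbp10 to Gbp4. The calls of Gbp7 to Gbp5 and of Gbp9 to Gbp8 depended on single libraries: 12 of their leave-out values lost the call, with adjusted p from 0.056 to 0.084.

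**Figure D3:**
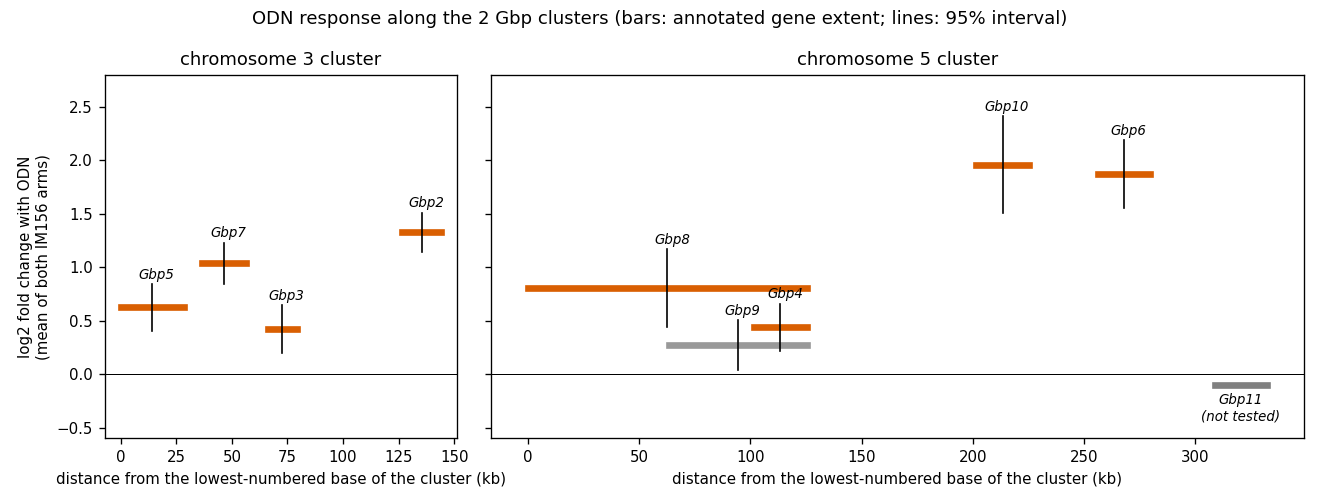
Log2 fold change with ODN, averaged over both IM156 backgrounds (vertical axis), along the chromosome 3 and chromosome 5 clusters (horizontal axis, distance in kb from the lowest-numbered base). Bars are the annotated gene extents, orange where the adjusted p is below 0.05 and grey where it is not, and vertical lines are 95% intervals; Gbp11 is drawn at an arbitrary height since it was not tested. By position, Gbp3 (0.42) stands between Gbp7 (1.04) and Gbp2 (1.33), both of which lie higher.

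For IM156 given alone, none of the 9 tested members was called against control, nor was any of all tested genes (0%). At an unadjusted p under 0.05, 1 of 9 members passed, where 3.7% of all genes did, and DESeq2 called 0 members and 2 genes in all. Gbp5 had the smallest p, with 47.8, 46.3 and 44 CPM in control and 31.2, 40.9 and 38.3 CPM with IM156. Every IM156 library was below every control library, and the log2 fold change was -0.32 (SE 0.15, unadjusted p = 0.045, adjusted p = 0.999).

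Gbp10 was the other member whose groups did not overlap, and such groups, lower with IM156, occurred in 5.25% of all tested genes. Its levels were 3.58, 2.18 and 2.61 CPM in control and 1.79, 1.59 and 2.05 CPM with IM156, a log2 fold change of -0.61 (SE 0.333, adjusted p = 0.999). Of the 9 log2 fold changes 8 were negative, with a median of -0.13, where 49.9% of all genes had a negative value. Gbp4 had the positive value, 0.05. The interval for Gbp7 was -0.315 to 0.237 and that for Gbp2 was -0.393 to 0.143.

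The next question was what IM156 adds in mice that received ODN. ODN+IM156 against ODN called 0 of 9 members, where 0.0675% of all tested genes (8) were called in either direction. At an unadjusted p under 0.05, 4 members passed, where 16.2% of all genes did, and DESeq2 called 3 members and 373 genes. Gbp6 had 13.3, 10.6 and 17 CPM with ODN and 24.9, 17.8 and 25.5 CPM with both agents, a log2 difference of 0.74 (SE 0.197, adjusted p = 0.0731). Gbp2 had 61.3, 44.9 and 54.1 CPM against 79.6, 66.3 and 71.1 CPM, a difference of 0.44 (SE 0.119, adjusted p = 0.0778). Gbp7 had 110, 90 and 128 CPM against 173, 141 and 139 CPM, a difference of 0.47 (SE 0.127, adjusted p = 0.0778). In these 3 genes and in Gbp8 (0.53, adjusted p = 0.271) the libraries with both agents were all above those with ODN, where 9.07% of all tested genes had such groups.

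This comparison turned on 1 library. Without ODN replicate 3, 4 members were called: Gbp7 (0.61, adjusted p = 0.00862), Gbp6 (0.94, adjusted p = 0.0109), Gbp4 (0.49, adjusted p = 0.0403) and Gbp2 (0.46, adjusted p = 0.0444). The number of genes called in all rose with them, from 8 to 798. Without ODN replicate 2, 0 members and 2 genes in all were called. The remaining differences in the full data were 0.47 for Gbp10 (adjusted p = 0.418), 0.29 for Gbp4 (adjusted p = 0.348), 0.12 for Gbp5 (adjusted p = 0.749), 0.11 for Gbp9 (adjusted p = 0.8) and -0.06 for Gbp3 (adjusted p = 0.895).

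The interaction tests whether IM156 acted differently with ODN than without it, which is also whether the ODN response differed between the backgrounds. It called 0 of 9 members and none of all tested genes (0%). DESeq2 called 0 members and 165 genes. At an unadjusted p under 0.05, 6 of 9 members passed, where 12.3% of all genes did. All 9 values were positive, as were 48.6% of those of all genes, with a median of 0.51. The largest was that of Gbp10, 1.08 (95% interval 0.182 to 1.99, adjusted p = 0.312), and the smallest adjusted p was that of Gbp2 (0.56, interval 0.199 to 0.93, adjusted p = 0.2).

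For Gbp8 the interaction was 0.82 (adjusted p = 0.337) and for Gbp5 it was 0.44 (adjusted p = 0.401). The calls of these 2 genes with IM156 and not without it were thus not shown to be a difference between backgrounds. Without ODN replicate 3 Gbp5 alone was called (0.70, adjusted p = 0.0348), together with 260 genes in all. Gbp3 had the smallest value, 0.06 (interval -0.378 to 0.504, adjusted p = 0.945). Averaged over ODN, IM156 called 0 of 9 members (0.0169% of all tested genes, with DESeq2 calling 0 members and 17 genes). Its values ran from -0.10 to 0.30, and 1 member, Gbp7, passed at an unadjusted p under 0.05, where 8.17% of genes did.

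Mice with both agents were also set against the untreated controls. Here 5 of 9 members rose, where 1.25% of all tested genes did, and none fell. The log2 fold changes were 2.17 for Gbp6 (adjusted p = 8.01e-06), 1.89 for Gbp10 (adjusted p = 0.000952), 1.48 for Gbp2 (adjusted p = 1.52e-06), 1.26 for Gbp7 (adjusted p = 1.1e-05) and 0.61 for Gbp4 (adjusted p = 0.0406). The Gbp4 call was lost without any 1 control library, without IM156 replicate 2 and without ODN+IM156 replicate 1 or 3, with adjusted p from 0.0665 to 0.182. Gbp8 (0.93, adjusted p = 0.0587) and Gbp5 (0.52, adjusted p = 0.0903) were not called, nor were Gbp3 (0.33, adjusted p = 0.348) and Gbp9 (0.26, adjusted p = 0.531). All 9 members had separate groups, where 10.2% of all tested genes did so in that direction. Control, ODN and IM156 libraries recur across these comparisons, so the comparisons are not independent of one another.

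Ordered by mean level, 7 of the 9 tested members followed IM156, control, ODN, ODN+IM156. They were Gbp2, Gbp5, Gbp6, Gbp7, Gbp8, Gbp9 and Gbp10. How many of all tested genes have this order was not counted. Between IM156 and control the libraries overlapped in Gbp2, Gbp6, Gbp7, Gbp8 and Gbp9. Between control and ODN they overlapped in Gbp5, Gbp8 and Gbp9, and between ODN and ODN+IM156 in Gbp5, Gbp9 and Gbp10. Gbp3 was the exception at the top, with means of 82.3 ± 18.6 CPM in ODN and 79 ± 6.03 CPM in ODN+IM156 (SD, n = 3) and overlapping libraries. Gbp4 was the exception at the bottom, with 54.6 ± 2.79 CPM in control and 56.7 ± 7.09 CPM in IM156, also overlapping.

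The libraries with both agents varied little in several members whose ODN libraries were spread. Gbp5 had 66.1 ± 2.47 CPM with both agents against 60.9 ± 16.9 CPM with ODN, Gbp3 had the values above, and Gbp9 had 49.9 ± 3.52 against 46.4 ± 11.4 CPM (SD, n = 3). In all 3 genes ODN replicate 3 was the highest of its group, at 79.9, 99.4 and 59.6 CPM. With 3 libraries per group the spreads themselves were not tested.

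Gbp11 was close to the limit of these libraries. It had 1, 0 and 4 counts in control, 0, 1 and 0 with ODN, 8, 3 and 5 with IM156 and 5, 4 and 4 with both agents. Summed over a group, these were 5, 1, 16 and 13 counts. The ratio of ODN to control was 0.198 (95% exact interval 0.00419 to 1.77) and that of ODN+IM156 to ODN was 13.1 (1.97 to 559); the intervals cover counting error only. The authors' deposited table gives 4.145-fold with p = 0.001 for the latter comparison, a value that rests on 1 count in the ODN group.

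A further row of the table, Gbp2b, is a GBP gene outside the 10 and was kept out of the counts above. It had 0, 5 and 5 counts in control, 13, 11 and 1 with ODN, 16, 5 and 3 with IM156 and 23, 17 and 18 with both agents. The summed ratio of ODN+IM156 to control was 5.81 (95% exact interval 2.95 to 12.8, counting error only), but the quasi-likelihood test across libraries did not call it (log2 fold change 2.51, adjusted p = 0.178).

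The genes whose profile over the 12 libraries was nearest to that of the family were found by a fixed measure. Each gene's log2 CPM was centred on its own mean, and the root mean square difference from the mean centred profile of the 9 tested members was taken for 8223 other genes (minimum mean level 10 CPM). The 8 nearest were Zbp1 (0.123), Tap1 (0.14), Ifi47 (0.155), Gvin1 (0.158), Gm4070 (0.162), Igtp (0.177), Pim2 (0.183) and Nlrc5 (0.192). Zbp1 senses Z-form nucleic acid, Tap1 pumps peptides for MHC class I, Nlrc5 transactivates MHC class I genes, Ifi47, Gvin1 and Igtp are interferon-induced GTPases, and Pim2 is a kinase that promotes survival. The members themselves ranged from 0.124 (Gbp7) and 0.211 (Gbp2) to 0.465 (Gbp6) and 0.536 (Gbp10), so several outside genes were nearer to the family mean than most members were.

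Zbp1 had 26, 20.3 and 22.2 CPM in control, 41.4, 35.6 and 42.8 with ODN, 22.5, 20.1 and 18.6 with IM156 and 53, 41.2 and 51.4 with both. Its order of groups was that of Gbp7. Gvin1 showed ODN replicate 3 apart from its group, with 328, 315 and 617 CPM in ODN replicates 1, 2 and 3 and 624, 506 and 569 CPM with both agents. Gm4070 did likewise, with 678, 648 and 1290 CPM in ODN. These 8 genes were chosen for their likeness, so no test of that likeness is given.

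**Figure D4:**
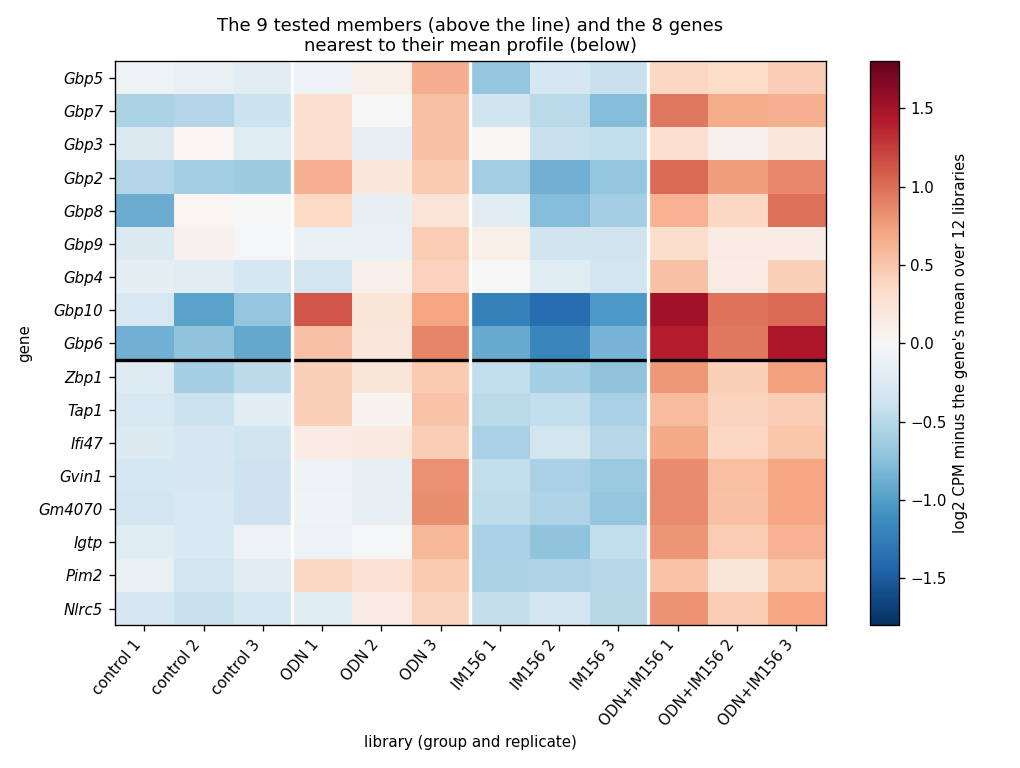
Log2 CPM of each gene minus its mean over 12 libraries (colour, blue below and red above) for the 9 tested members, above the black line, and the 8 genes with the nearest profile, below it. Columns are libraries by group and replicate. Red fills the ODN+IM156 columns in every row, and the ODN 3 column is redder than ODN 1 and ODN 2 in Gbp5, Gbp4, Gvin1 and Gm4070.

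Other genes of the interferon pathway were taken from 10 lists by role, and are described by counts of called genes. Of all tested genes, 7.34% rose with ODN against control and 1.74% with ODN+IM156 against IM156, and a list's count is to be read against the share of its own comparison. At the top, the list of ligands and receptors gave 0 of 5 tested genes with ODN against control. With ODN+IM156 against IM156 it gave 1 of 5, Il12rb1 (2.10, adjusted p = 0.0376), which is not an interferon receptor gene. The gene for interferon-gamma, Ifng, was not tested. It had 3, 0 and 2 counts in control, 6, 0 and 0 with ODN, 0, 2 and 1 with IM156 and 14, 5 and 4 with both agents. The interferon genes Ifnb1, Ifna4 and Ifnl3 had 0 counts in all 12 libraries. The interferon receptor genes Ifngr1, Ifngr2, Ifnar1 and Ifnar2 were not called in either comparison, though Ifnar2 rose with ODN averaged over IM156. Ifngr1 and Ifngr2 had log2 fold changes of 0.00 and -0.30 for ODN against control.

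Among the JAK-STAT and IRF transducers, ODN alone raised Irf8 (0.36, adjusted p = 0.00768), and ODN on the IM156 background raised Irf1, Stat3, Irf9, Irf7 and Irf8. Irf1, a transcription factor that activates Gbp promoters, had 283, 268 and 267 CPM in control and 251, 317 and 522 CPM with ODN. It had 221, 248 and 283 CPM with IM156 and 579, 475 and 497 CPM with both agents, a log2 fold change of 1.04 between the latter groups (SE 0.176, adjusted p = 0.00172). As in Gbp5 and Gbp4, ODN replicate 1 of Irf1 lay within or below the control range and replicate 3 was the highest of its group. The interaction for Irf1 was 0.63 (adjusted p = 0.299) and was not called.

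Of 10 genes that brake interferon signalling, 1 fell with ODN, the phosphatase gene Ptpn6 (-0.29, adjusted p = 0.0358). Of the 1255 genes called with ODN among all tested, 870 were higher and the rest lower. On the IM156 background 1 of 10 rose with ODN, Socs1, an inhibitor of JAK kinases (1.55, adjusted p = 0.00658). Single genes are no result about the list. The immunity-related GTPases act with GBPs on vacuoles, and their list here also holds Gvin1, a GTPase of another family. Of its 9 tested genes, 7 rose with ODN (median 0.61) and 8 with ODN on the IM156 background (median 1.39). In the first comparison the risen genes were Irgm1, Irgm2, Tgtp1, Tgtp2, Gm12250, Iigp1 and Gvin1, and Igtp joined them in the second. Tgtp1 had 12.7, 10.3 and 14 CPM in control and 28.9, 29.4 and 48.2 CPM with ODN (1.52, adjusted p = 5.89e-05), and Iigp1 rose by 3.16 (adjusted p = 0.000134).

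Among downstream partners, none of 7 prenyltransferase and related genes for the lipid anchor was called in either comparison, and none of 13 ATG8 conjugation genes used in GBP targeting. Of 9 inflammasome genes, ODN raised Zbp1 (0.81, adjusted p = 0.000737), the adaptor gene Pycard (0.73, adjusted p = 0.00252) and Il1b (2.39, adjusted p = 0.0014). On the IM156 background Zbp1 and Pycard rose. Of 14 interferon-gamma targets of antigen presentation, 4 rose with ODN (Psmb9, Tap1, B2m and Nlrc5), where 7.34% of all tested genes did. On the IM156 background 7 rose, with Psme1, Psmb8 and Cxcl9 added, where 1.74% of all tested genes did.

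Of 20 type I interferon-stimulated genes, 5 rose with ODN (Ifih1, Zbp1, Ifi44, Isg15 and Oasl2) and 8 on the IM156 background (Rtp4, Ifit2, Zbp1, Ifi44, Isg15, Oasl2, Oasl1 and Oas2). The TLR9 and MyD88 pathway gave 1 of 15 genes with ODN, the activation marker Cd83 (0.65, adjusted p = 0.001), and 0 of 15 on the IM156 background. These shares are near those of all tested genes and are no result about the list. Tlr9 itself had 1 to 9 counts in a library and was not tested. No gene of the 10 lists was called for IM156 against control, for ODN+IM156 against ODN or for the interaction. Whether more genes of a list respond on 1 background than on the other was not tested. Zbp1 and Traf6 each stand in 2 of the lists.

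**Figure D5:**
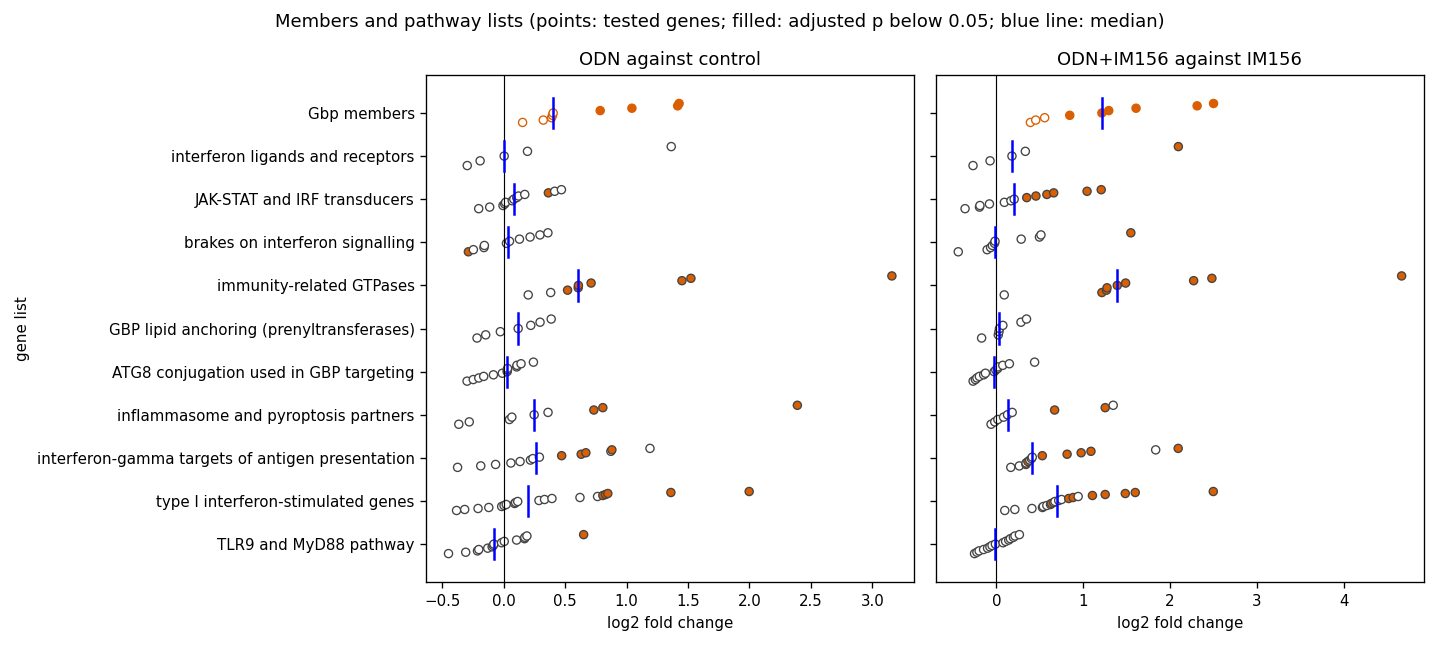
Log2 fold change (horizontal axis) of each tested gene in the Gbp family and the 10 pathway lists, for ODN against control and for ODN+IM156 against IM156. Filled points have an adjusted p below 0.05 and blue lines are list medians. The family medians are 0.40 and 1.215, those of the list of immunity-related GTPases 0.61 and 1.39, while the prenyltransferase and ATG8 lists have no filled point.

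Markers checked the labelled cell type. The summed level of 10 B-cell markers was 7710 to 8550 CPM over the 12 libraries, and none of the 10 was called with ODN. Markers of several other cell types differed between libraries with and without ODN. The NK-cell list summed to 4.44 to 5.07 CPM in control and 16 to 25.3 CPM with ODN, and to 3.24 to 5.23 CPM with IM156 and 10.4 to 16.3 CPM with both. Of its 4 tested genes Gzma and Il2rb rose with ODN. Ncr1, Gzmb and Klre1 were at 0 in all control and IM156 libraries, while Ncr1 had 5, 11 and 10 counts with ODN and 7, 6 and 3 with both.

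The neutrophil list went from 5.61 to 8.44 CPM in control to 22.9 to 88.2 CPM with ODN, the highest in replicate 1, and 2 of 3 tested genes were called. The dendritic-cell list went from 37.2 to 46.3 to 57.4 to 60.7 CPM (1 of 7 called), the monocyte and macrophage list from 38.4 to 73.3 to 49 to 90 CPM (3 of 11), the T-cell list from 22.8 to 31.3 to 30.6 to 38.1 CPM (0 of 4), and the platelet list from 40.4 to 58.2 to 110 to 194 CPM (5 of 6). The erythroid list fell from 498 to 640 CPM to 76 to 188 CPM (3 of 5 lower). Of all 11857 tested genes, 1255 were called with ODN against control, 870 of them higher (7.34%) and the rest lower. With both agents the neutrophil list summed to 18.3 to 24.2 CPM, the dendritic-cell list to 53.2 to 91.1 CPM and the platelet list to 118 to 153 CPM. The NK-cell, neutrophil, dendritic-cell and platelet sums were higher in every ODN library than in every control library, as the Gbp sum was. The T-cell and monocyte sums of these groups overlapped, with ODN replicate 3 lowest of its group in the monocyte list, and the erythroid sum was lower. The T-cell sum did not overlap on the other background, at 27.4 to 30.3 CPM with IM156 and 32.3 to 44.7 CPM with both agents. None of its 4 tested genes was called there, but Cd8a and Thy1 rose with ODN averaged over IM156. The part of these cells in the Gbp values was not tested.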

How the data were processed

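RNA from splenic B cells was made into 3′-end libraries (Lexogen QuantSeq, per the labels' protocols), 12 in all. The authors deposited 1 table of raw read counts per gene. Bowtie2, bedtools and edgeR with GRCm38 (mm10) were used, per the submitters' processing notes; their versions, the gene annotation, the strand rule and the treatment of reads that match several genes are not given in the sources used here. The same table holds the authors' fold changes, a ratio between groups, with the authors' p-values, of a test not given in the sources used here. The deposited log2 values were not used. The listed symbols Ifgga1, Trac, Trbc2 and Ly6g matched no row of the count table, so they were not analysed. Not every gene of the lists is reported here.

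Counts were tested in edgeR 4.0.16 (R 4.3.3) with filterByExpr, TMM scaling and a quasi-likelihood fit of 1 mean per group to all 12 libraries (8 residual degrees of freedom). Tests were two-sided, with Benjamini-Hochberg adjustment over 11857 genes, and the procedure was checked on simulated data. Levels are CPM of the TMM-scaled library, and intervals are 95%. Count ratios of neighbours used a pseudocount of 0.5. The median count of a tested gene was 258. Replicate pairs had a mean chi-square per degree of freedom of 5.14 to 68.1, a ratio of variances relative to counting error. The highest values, 65.4 and 68.1, were of the pairs with ODN replicate 2, and the mean includes the Rn45s row, in which that library stood apart. Named are all members, listed genes called in a comparison or with the smallest p, and the 8 nearest profiles. Members and lists were chosen with earlier results of these data known. Alternatives were DESeq2 1.42.0, other scalings and filters, a robust fit, fits of the compared groups alone, a replicate block and each library left out. Same-numbered libraries did not deviate together, so no pairing was assumed.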

Additional observations from a re-analysis of the deposited data

How the results depend on the processing

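The counts of called members stayed within 1.5 times their values for ODN against control (4 to 6 with 1 library left out), ODN+IM156 against IM156 (5 to 7), ODN+IM156 against control (4 to 7) and ODN averaged over IM156 (8 to 9), and stayed at 0 for IM156 against control and IM156 averaged over ODN. For ODN+IM156 against ODN the count was 3 with DESeq2, 3 without the low-count filter and 0 to 4 with 1 library left out, the 4 without ODN replicate 3. For the interaction it was 1 without the filter (Gbp7, adjusted p = 0.0469) and 0 to 1 with 1 library left out, the 1 without ODN replicate 3. The cause was not tested.

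Over all genes, ODN against control called 1255 genes, against 596 with the compared groups alone and 774 to 1888 with 1 library left out. ODN+IM156 against ODN called 8, against 373 with DESeq2, 664 without the filter, 124 with the robust fit, 3 with the block, 1 with the compared groups alone and 1 to 798 with 1 library left out. Both agents against IM156 gave 293, against 652 without the filter, 910 with the compared groups alone and 112 to 548 with 1 library left out. Both agents against untreated mice gave 188, against 324, 531 and 396 with DESeq2, without the filter and with the compared groups alone, and 88 to 361 with 1 library left out. The interaction gave 0, against 165 with DESeq2, 276 without the filter and 0 to 260 with 1 library left out. IM156 alone gave 0, against 2 with DESeq2, 53 without the filter and 6 with the compared groups alone. IM156 averaged over ODN gave 2, against 17 with DESeq2, 225 without the filter and 1 to 113 with 1 library left out. Scaling by library totals alone moved the higher calls for ODN against control from 870 of 1255 to 695 of 1415.

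With the replicate block the members called were 4, 0, 0, 6, 4, 0, 8 and 0, listed as ODN alone, IM156 alone, both agents over ODN, over IM156 and over control, interaction, ODN averaged and IM156 averaged. The 1 change was the loss of Gbp4 for ODN+IM156 against control (adjusted p = 0.0639), which library totals alone also lost (adjusted p = 0.0553). The replicate numbers mark no shared animal or day, and the 18 same-numbered pairs had correlations of -0.1 to 0.0789.

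Signs that turned were all of uncalled log2 values. With 1 library left out at a time, Gbp9 for ODN against control ran from -0.075 (without ODN replicate 3) to 0.26. With IM156 against untreated mice, Gbp4 ran from -0.052 to 0.131 and Gbp7 from -0.137 to 0.075. When both agents were set against ODN, Gbp3 ran from -0.223 to 0.111 and Gbp5 from -0.025 to 0.373, the higher ends without ODN replicate 3. The Gbp3 interaction ran from -0.103 to 0.235. For IM156 averaged over ODN, Gbp5 ran from -0.175 to 0.024, Gbp9 from -0.0957 to 0.10 and Gbp10 from -0.178 to 0.054, and Gbp9 was 0.020 with library totals alone. The ratio of Gbp6 to Gbp10 ran from -0.182 to 0.0343. Depth limits Gbp11 and Gbp2b, whose libraries held few reads.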
